A study of Oryza sativa with 8 samples.

Results

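ADC2 is 1 of 2 rice genes that carry an arginine decarboxylase name in the gene table, and it was followed here as 1 gene of the 17905 that the array names. It was chosen by its measured signal over these arrays, by organ, genotype and gas, and every probe set annotated to it was taken. A single probe set met that rule (locus LOC4334917, chromosome 4). Because measured values selected the gene, its levels and differences are given as a description, without a test.

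Arginine decarboxylase removes the carboxyl group of arginine and yields agmatine, which later enzymes of the plant pathway turn into putrescine. Putrescine is the diamine from which spermidine and spermine are built, with aminopropyl groups that come from decarboxylated S-adenosylmethionine. S-adenosylmethionine is also the precursor from which plants make ethylene. In plants, arginine decarboxylase genes are known for changing their transcript level under stress and hormone treatment.

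Etiolated rice seedlings of the mhz7 mutant and of the wild type (WT) were compared, in ethylene and in air, with roots and shoots taken separately. MHZ7 is listed as a synonym of EIN2, a membrane protein needed for ethylene signalling, and the labels name neither the allele nor the lesion; they call these arrays MHZ7, which was taken to mean the mutant because the design text speaks of wild type and mutant. The 8 conditions were mhz7 root in ethylene, mhz7 root in air, WT root in ethylene, WT root in air, and the same 4 for the shoot, each with 1 Affymetrix array and no replicate. Seeds were germinated at 37 °C for 2 days, and all seedlings grew in the dark. Treated seedlings received 10 ppm ethylene for 8 h at 28 °C at an age of 3 days, and the controls were kept in air. The labels mention lowering the water under the seeds for the ethylene treatment and do not say whether air seedlings had the same. With so few arrays the precision of every value below is limited, and in whole organs fewer cells of a type and less RNA per cell cannot be told apart.

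Signals were scaled alike on every array, and 20237 to 20547 probe sets per array reached 200, the level required of the brighter array before a difference of 2-fold (1 on the log2 scale) was counted. Of 7 root markers fixed for a check of the tissue labels, 6 were measured, and all 6 were brighter on every root array than on any shoot array. The 3 measured shoot markers of 5 (RBCS, CAB2R and PORA) were likewise brighter on every shoot array. On root arrays, the summed signal of the shoot markers was between 0.631% and 2.59% of its shoot value, and on shoot arrays that of the root markers was between 1.79% and 4.95% of its root value. The 3′ to 5′ actin ratio, which increases as RNA is degraded, lay between 6.34 and 9.55 on 7 arrays and was 13.5 on the mhz7 shoot ethylene array.

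ADC2 had its highest signals in mhz7 roots and its lowest in WT seedlings under ethylene. In roots its scaled signal was 8248 in mhz7 in ethylene, 8296 in mhz7 in air, 315 in WT in ethylene and 2572 in WT in air. In shoots it was 1964 in mhz7 in ethylene, 2668 in mhz7 in air, 424 in WT in ethylene and 1765 in WT in air. The highest value was thus 26.3-fold above the lowest.

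Ordered from high to low, the 8 levels fell into 3 steps. Both mhz7 root arrays stood at the top and differed from each other by 1.01-fold. A drop of 3.09-fold led to a middle group of mhz7 shoot in air, WT root in air, mhz7 shoot in ethylene and WT shoot in air, whose neighbours were 1.04-fold, 1.31-fold and 1.11-fold apart. A second drop, of 4.16-fold, led to WT shoot in ethylene, and WT root in ethylene stood 1.35-fold lower still. With 1 array per condition no spread exists for these steps, and neighbours within the top, middle and bottom groups were all closer than 2-fold. In rank, 1.81% of all probe sets were brighter than ADC2 on the mhz7 root array in air, against 29.7% on the WT root ethylene array.

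**Figure D1:**
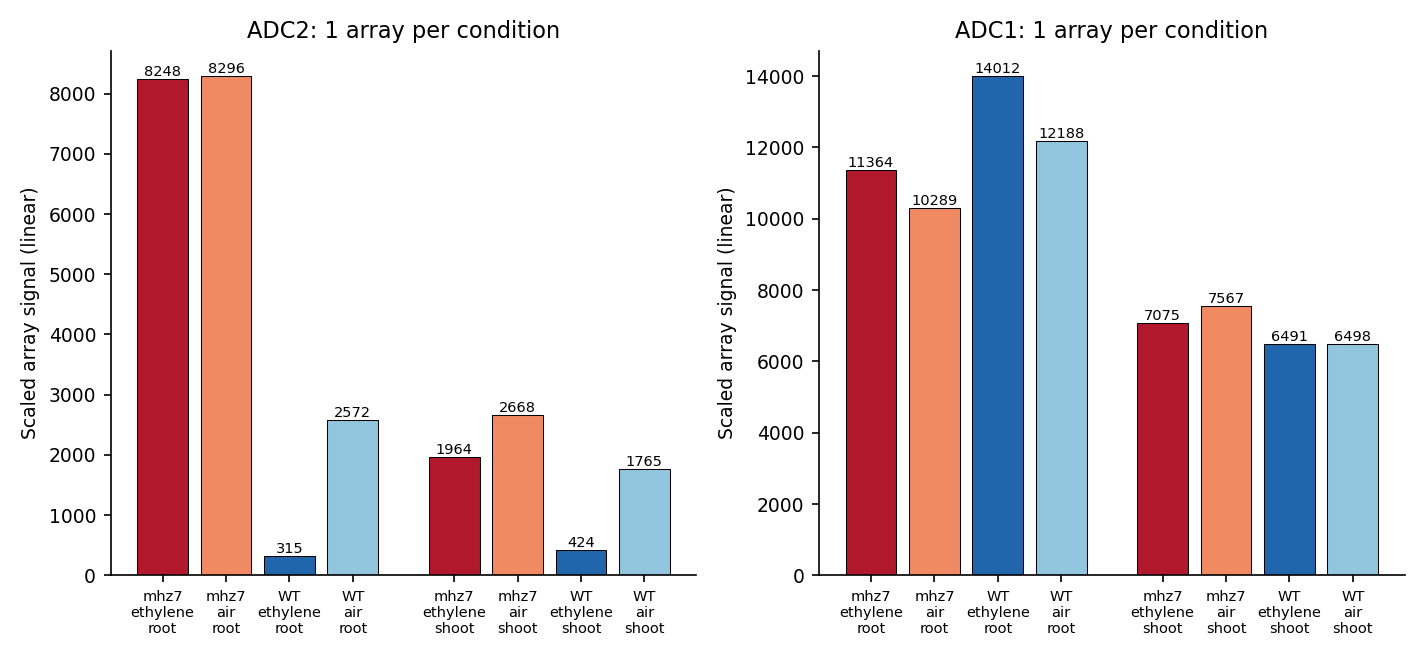
Scaled signal (linear axis) of ADC2, left, and of the brighter ADC1 probe set, right, on each of the 8 arrays, with 1 bar per array and no error bars because no condition was repeated. ADC2 reads 8248 and 8296 in mhz7 roots and 315 and 424 on the WT ethylene arrays of root and shoot, whereas ADC1 stays between 6491 and 14012; heights are not comparable between the panels.

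With ethylene, ADC2 was far lower in WT and close to its air level in mhz7 roots. In WT roots the ethylene signal of 315 against 2572 in air was a difference of -3.03 on the log2 scale (8.16-fold), the second lowest of 21444 probe sets; 0.965% of them were at least 2-fold lower in this comparison. In WT shoots, 424 in ethylene against 1765 in air gave -2.06 (4.16-fold), at rank 24 from the lowest, where 1.2% of probe sets were 2-fold lower. These ranks describe values among those the gene was chosen for, so nothing further is read from them.

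The mhz7 pairs use arrays of their own. In mhz7 roots the difference was -0.01 (8248 in ethylene and 8296 in air), and 0.802% of probe sets were 2-fold lower there. In mhz7 shoots it was -0.44 (1964 in ethylene and 2668 in air), inside 2-fold, with 0.429% of probe sets 2-fold lower. This last value lay within the middle 95% of all probe sets in the same pair, which ran from -0.48 to 0.31. It was near the lower end of that range, at rank 649 from the lowest of 21444. The actin ratio of this pair was 13.5 in ethylene and 9.55 in air, and its part in the difference was not tested. The ethylene difference in mhz7 minus that in WT was 3.02 in roots, rank 4 from the highest of 21444, and 1.61 in shoots, rank 35. The genotypes had the same order in both organs, with the root value larger. These values and ranks are also among those that ADC2 was chosen for, so nothing further is read from them.

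**Figure D2:**
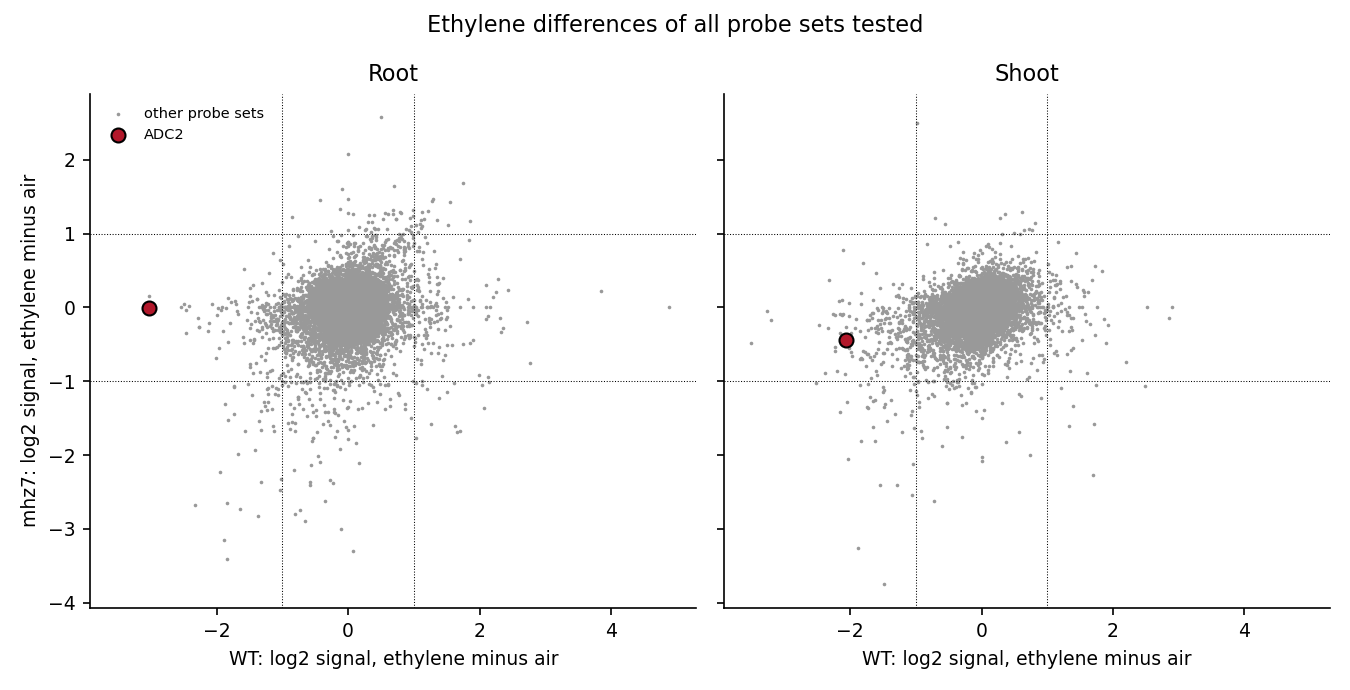
Log2 signal in ethylene minus air for each of 21444 probe sets, in WT on the x axis and in mhz7 on the y axis, in roots (left) and shoots (right); dotted lines mark 2-fold. ADC2 lies at -3.03 in WT and -0.01 in mhz7 for roots, and at -2.06 in WT and -0.44 in mhz7 for shoots.

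Set against WT in the same organ and gas, mhz7 had more ADC2 signal in all 4 pairs. In air the mhz7 root value of 8296 was 3.23-fold that of WT root (2572), a log2 difference of 1.69, and 1.68% of probe sets were 2-fold higher there. In ethylene the mhz7 root value of 8248 was 26.2-fold the WT value of 315 (4.71 on the log2 scale), in a comparison with 3.05% of probe sets 2-fold higher. The shoots differed less. In air, 2668 in mhz7 against 1765 in WT was 1.51-fold (0.60), under the 2-fold mark that 1.61% of probe sets passed, and in ethylene 1964 in mhz7 against 424 in WT was 4.63-fold (2.21), with 2.65% of probe sets 2-fold higher. The root and shoot differences in ethylene rest on the same WT ethylene arrays as the low values above. The actin ratio in ethylene was 9.32 in mhz7 roots against 6.80 in WT roots, and 13.5 in mhz7 shoots against 8.26 in WT shoots; its part in the ADC2 differences was not tested.

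ADC2 differed more between the organs in mhz7 than in WT. In mhz7, roots exceeded shoots by 3.11-fold in air (8296 against 2668), where 12.3% of probe sets were 2-fold higher in roots, and by 4.20-fold in ethylene (8248 against 1964), where 13.1% were. In WT the organs were within 2-fold, with 2572 in root against 1765 in shoot in air (0.54 on the log2 scale; 10.8% of probe sets 2-fold higher in roots). In ethylene the WT root had 315 against 424 in shoot (-0.43; 13.6% of probe sets 2-fold lower in roots). If WT roots in air held shoot RNA at the marker level of 2.59%, the shoot signal of ADC2 would amount to 45.8 of their 2572. The corresponding amount from root RNA on the mhz7 shoot array in air was 315 of 2668, the largest of the 8 such values.

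ADC1, the other gene with an arginine decarboxylase name, spanned a much smaller range. Its brighter probe set read 11364 in mhz7 roots in ethylene, 10289 in mhz7 roots in air, 14012 in ethylene-treated WT roots and 12188 in WT roots in air. In shoots it read 7075 in mhz7 in ethylene, 7567 in mhz7 in air, 6491 in WT in ethylene and 6498 in WT in air. The highest of these 8 values was 2.16-fold the lowest, and the second ADC1 probe set spanned 3.08-fold. Where ADC2 was lower with ethylene in WT roots, ADC1 read 0.20 higher on the log2 scale by the brighter probe set and 0.54 higher by the other. The probe sets of the 2 genes are separate on the array; whether either also picks up transcripts of the other was not tested.

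Other genes of polyamine and arginine metabolism were taken from 5 lists, matched by name in the gene table. Pathway genes without a matching name there were not covered. The lists held no gene for agmatine iminohydrolase, ornithine decarboxylase, or argininosuccinate synthase and lyase, so they do not describe the whole pathway. They named 17 genes besides ADC2, of which 14 had a probe set, and all 14 reached the minimum mean signal of 200. They were tested with limma over pairs of arrays that share the other factors, so the spread behind each p-value is that between conditions, not between repeats. No list gene passed an adjusted p of 0.05 for ethylene in WT (3 had an unadjusted p under 0.05, as had 8.64% of all probe sets), where 0.00933% of all probe sets were called. None passed for ethylene in mhz7 (0 at an unadjusted p under 0.05, against 3.92% of all probe sets; 0% called) or for the difference between the genotypes' ethylene responses (3 unadjusted, against 4.99% of all; 0% called). None passed for mhz7 against WT (2 unadjusted, against 21.9% of all), where 1.45% of all probe sets were called. The median log2 difference of the 14 genes was -0.07 for ethylene in WT, against 0.02 over all probe sets tested, and 0.07 for mhz7 against WT, against 0.00 over all.

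Within polyamine synthesis, the 4 genes tested besides ADC2 differed little with gas. CPA, the symbol of N-carbamoylputrescine amidase, which makes putrescine, had an ethylene difference in WT of -0.12 over both organs (SE 0.103, limma adjusted p = 0.829). SAMDC, for S-adenosylmethionine decarboxylase, the supplier of aminopropyl groups, stood at 0.14 (SE 0.0813, limma adjusted p = 0.713). For spdSyn1, a spermidine synthase gene, the value was 0.01 (SE 0.0765, limma adjusted p = 0.992), and for ADC1 it was 0.10 (SE 0.103, limma adjusted p = 0.855). On single pairs of arrays that differed only in gas, the log2 differences of the brighter probe sets of these 4 ran from -0.25 (CPA in WT shoots) to 0.22 (SAMDC in WT shoots), whereas ADC2 was at -3.03 and -2.06 in WT. The dimmer probe sets of ADC1 and SAMDC each read 0.54 higher with ethylene in WT roots.

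Over the 8 arrays, OAT had the highest Pearson's r with ADC2 of the list genes (0.87), and PUT1, a polyamine uptake transporter gene, followed at 0.71. PUT1 came first once organ means were removed. In roots PUT1 read 3018 in mhz7 in ethylene, 3172 in mhz7 in air, 1158 in WT in ethylene and 1896 in WT in air. In shoots it read 806 in mhz7 in ethylene, 797 in mhz7 in air, 595 in WT in ethylene and 752 in WT in air. It was thus lowest with ethylene in WT in each organ, by 1.64-fold in roots and 1.26-fold in shoots. Its ethylene difference in WT, -0.52 (SE 0.115, unadjusted p = 0.00772), did not pass after adjustment (limma adjusted p = 0.329), nor did its 0.66 for mhz7 against WT (SE 0.216, limma adjusted p = 0.169). With organ means removed, Pearson's r with ADC2 over the 8 arrays ran from 0.97 for PUT1 to -0.93 for THT2 among list genes. With organ means kept, r for THT2 was -0.25 over the 8 arrays. It was 0.73 without the WT ethylene arrays of root and shoot, so its sign depended on those arrays. For PUT1, r without them was 0.90. These values are a description with no p-value, since the arrays share organs, genotypes and gases.

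Among the genes that attach hydroxycinnamic acids to amines, readings ran in different directions. THT2, whose symbol stands for tyramine hydroxycinnamoyl transferase, read 455 in mhz7 roots in ethylene, 469 in mhz7 roots in air, 840 in ethylene-treated WT roots and 491 in WT roots in air. Its mean ethylene difference in WT over both organs was 0.66 (SE 0.101, unadjusted p = 0.00181, limma adjusted p = 0.208), and that in mhz7 was -0.14. PHT3, whose symbol stands for putrescine hydroxycinnamoyl transferase, read 1099 in mhz7 roots in ethylene, 654 in mhz7 roots in air, 901 in ethylene-treated WT roots and 409 in WT roots in air, and lay under the signal floor of 100 on all 4 shoot arrays. The other PHT gene, PHT1, which the table also lists as HCT3, read 318 in WT roots in ethylene against 571 in WT roots in air (-0.85), and its second probe set gave -0.42. In WT shoots its brighter probe set gave -0.02 and the second 0.14. Over both WT organs the mean ethylene difference of the brighter probe set was -0.43 (SE 0.211, limma adjusted p = 0.68).

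For the supply of substrates, no ethylene difference passed after adjustment. SAM1 and SAM2, which encode S-adenosylmethionine synthetases, had ethylene differences in WT of -0.06 and -0.09 (limma adjusted p = 0.897 and 0.848). METK3, a dim member of the same family with a signal of 125 to 353, had one of -0.53 in WT (SE 0.0798, unadjusted p = 0.00162, the lowest of the 14 genes; limma adjusted p = 0.208) and 0.10 in mhz7 (limma adjusted p = 0.98). The difference between these responses was 0.63 (unadjusted p = 0.00341, limma adjusted p = 0.623), and METK3 spanned 2.82-fold over the 8 arrays. ARG1, an arginase gene that degrades the substrate of ADC2, stood at -0.13 for ethylene in WT and at -0.23 for mhz7 against WT (limma adjusted p = 0.73 and 0.123), and spanned 2.10-fold. OAT, an ornithine aminotransferase gene, and CARB, for the large subunit of carbamoyl phosphate synthetase, spanned 1.34-fold and 1.26-fold over the 8 arrays.

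**Figure D3:**
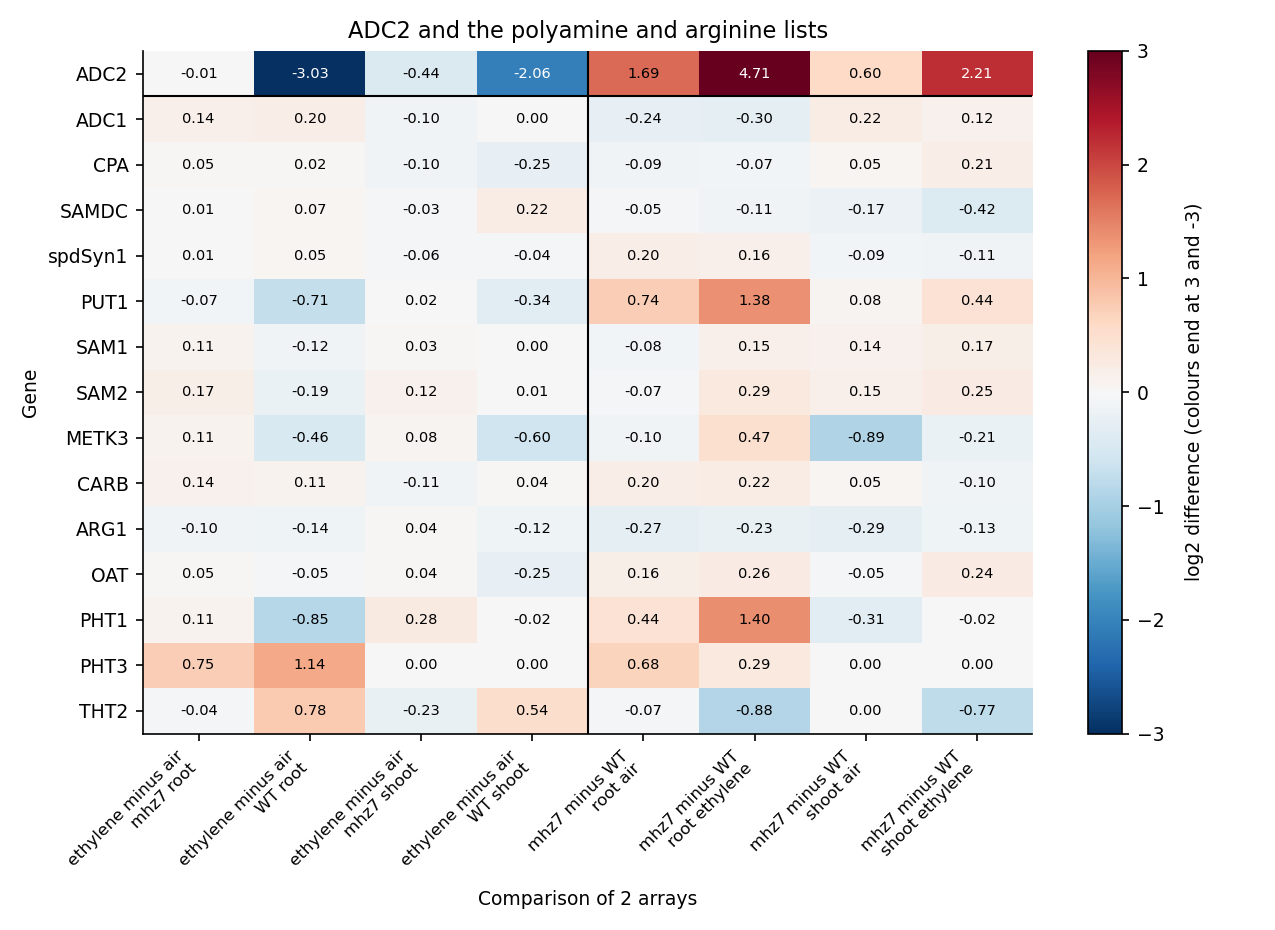
Log2 difference between 2 arrays for ADC2 (top row) and the 14 measured list genes, for the 4 ethylene minus air pairs (left of the line) and the 4 mhz7 minus WT pairs (right). ADC2 runs from -3.03 to 4.71, whereas the list genes lie between -0.89 (METK3) and 1.40 (PHT1); values of 0.00 for PHT3 in shoots come from signals under the floor of 100.

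Organ differences were common in these lists, as across the array. Of the 14 genes, 8 were higher in roots than in shoots and 2 were lower (limma, adjusted p under 0.05), while 41.5% of all probe sets were called higher in roots and 25.9% lower, 67.4% together. The list median, root minus shoot, was 0.36, against 0.15 over all probe sets. ADC1 was higher in roots by 0.79 (SE 0.122, limma adjusted p = 0.00296), CPA by 0.79 (adjusted p = 0.000856), spdSyn1 by 0.70 (adjusted p = 0.00118) and PUT1 by 1.55 (SE 0.194, adjusted p = 0.00131). PHT3 was called higher in roots (adjusted p = 0.000335), and with its shoot signals set to the floor the root signal was between 4.09-fold (WT in air) and 11.0-fold (mhz7 in ethylene) higher in the 4 pairs. ARG1 was lower in roots by 1.65-fold (-0.72, SE 0.0609, adjusted p = 0.000321), and METK3 was lower by 1.51-fold (adjusted p = 0.0272), a call that was lost without the WT air pair or the WT ethylene pair of arrays.

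The genes most like ADC2 were ranked by Pearson's r of log2 signal over the 8 arrays, among 13838 other genes with 1 probe set each. The 6 nearest carry only locus numbers: LOC4345205 (r = 0.986), LOC4343183 (0.979), LOC4344083 (0.976), LOC9267822 (0.975), LOC4334319 (0.966) and LOC4335479 (0.962). LOC4345205 read 7760 in mhz7 roots in ethylene, 9005 in mhz7 roots in air, 1067 in ethylene-treated WT roots and 3702 in WT roots in air. LOC4343183 read 13926 in mhz7 roots in ethylene, 13220 in mhz7 roots in air, 1964 in ethylene-treated WT roots and 6762 in WT roots in air. Both were thus brightest in mhz7 roots and dimmest in WT roots under ethylene, as ADC2 was. Since the 6 were picked by r over these same arrays, a profile like that of ADC2 follows from the choice. Each of the 6 was lower with ethylene in both WT organs, but over smaller ranges than the 26.3-fold of ADC2, from 1.59-fold for LOC9267822 to 8.44-fold for LOC4345205. Without the WT ethylene arrays of root and shoot, the 2 arrays farthest from the median of ADC2, r over the other 6 arrays was between 0.835 and 0.975. The genes themselves had been picked with all 8 arrays.

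The nearest genes that carry a symbol varied less. ME6, an NADP-malic enzyme gene, had r = 0.962 and a range of 2.35-fold, GUT1 0.946 and 1.37-fold, G1L1 0.944 and 2.60-fold, and OsPP2C14, a type 2C protein phosphatase gene, 0.941 and 1.66-fold. In all, 56 genes (0.405%) reached r of at least 0.9, and 59 (0.426%) reached -0.9 or below.

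Among the opposite profiles, LOC4324556 (r = -0.984) and LOC4352613 (-0.969) had the wide ranges, 10.5-fold and 11.9-fold. LOC4324556 read 256 in mhz7 roots in ethylene, 232 in mhz7 roots in air, 2058 in ethylene-treated WT roots and 445 in WT roots in air. In shoots it read 572 in mhz7 in ethylene, 495 in mhz7 in air, 2434 in WT in ethylene and 829 in WT in air. LOC4343238 (-0.973) and LOC4326150 (-0.967) spanned only 1.33-fold and 1.61-fold. Genes with a symbol at this end were EXLA3, an expansin-like gene (-0.961), NBP (-0.948), TDC2, for tryptophan decarboxylase (-0.947), and PDC, also listed as PDC2, for pyruvate decarboxylase (-0.946), with ranges between 1.32-fold and 2.03-fold.

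**Figure D4:**
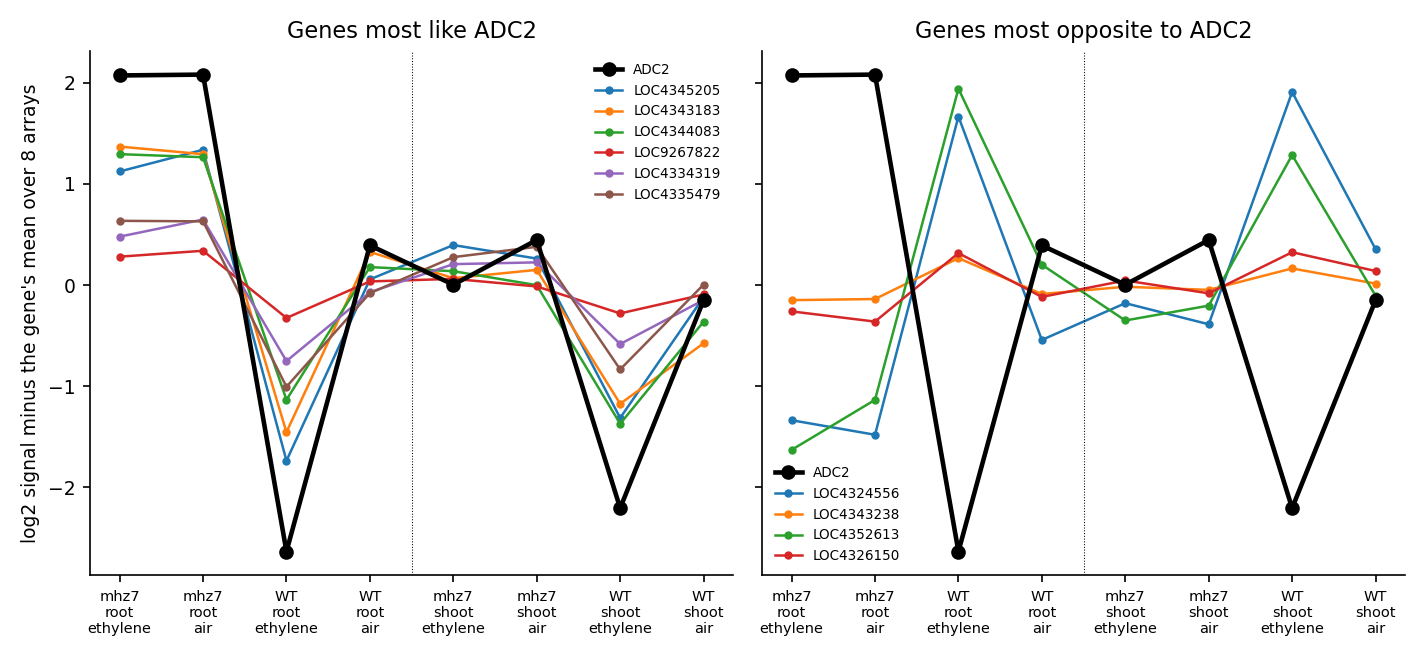
Log2 signal minus each gene's own mean over the 8 arrays, for ADC2 (black) with the 6 genes most like it (left) and the 4 most opposite (right), by Pearson's r. The 6 like genes, picked for this likeness, dip on the WT ethylene arrays of both organs as ADC2 does, by less. LOC4324556 and LOC4352613 peak there.

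Probe sets were also counted that shared the calls of ADC2 in 6 of its 12 comparisons, those of ethylene in each organ and genotype and of genotype in ethylene. Of 21444, 39 were at least 2-fold lower with ethylene in both WT root and WT shoot, 30 of these stayed within 2-fold in both mhz7 organs, and 25 of these were also 2-fold higher in mhz7 than in WT in ethylene in both organs. The 25 list 14 genes, ADC2 among them; the calls of ADC2 in air between genotypes and between organs were not required. Here the WT and the mhz7 ethylene pairs share no array, but the comparison of genotypes in ethylene uses the arrays of both. The last step is therefore not independent of the earlier ones. Few probe sets of any kind were 2-fold lower with ethylene in mhz7, 0.802% in roots and 0.429% in shoots. In ethylene, 3.05% were 2-fold higher in mhz7 than in WT in roots and 2.65% in shoots. The counts were not tested.

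The position of ADC2 on chromosome 4 was looked at after the values were known, by gene order only. ARG1, the arginase gene, is the sixth gene to one side of it. Of the 10 genes on each side, 8 reached the minimum signal, and none of the 8 was 2-fold lower with ethylene in WT roots or in WT shoots, where 0.965% and 1.2% of all probe sets were. Their log2 differences ran from -0.80 to 0.60 in WT roots and from -0.98 to 0.03 in WT shoots, with LOC4334918 lowest in both; its ethylene signal in WT roots, 41.5 against 174 in air, lay under the floor. The adjacent gene on one side, LOC4334916, read 4217 in mhz7 roots in ethylene, 4316 in mhz7 roots in air, 3169 in ethylene-treated WT roots and 4138 in WT roots in air. LOC4334918, on the other side, was mainly a shoot transcript, with 4801 in mhz7 shoots in ethylene, 5265 in mhz7 shoots in air, 2526 in WT shoots in ethylene and 4966 in WT shoots in air.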

How the data were processed

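The files hold 1 deposited intensity for each probe set on each of the 8 arrays, made by the authors with MAS5, per the submitters' processing notes. The version, scaling target and presence calls behind these intensities were not given in the sources used here. Of 57381 probe sets, 123 controls were set aside. Each array was multiplied by 2.00 to 2.10 to bring its mean, without the highest and lowest 2% of values, to 500; signals under 100 were set to 100 before log2 was taken. Probe sets with a mean of at least 200 (21444) were tested. Of the 57258 analysed, 22436 list 1 gene, 95 several and 34727 none; names came from the gene table of assembly ASM3414082v1, in which all 17905 genes matched. The brightest probe set stands for a gene.

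Fits used limma 3.58.1 in R 4.3.3 with the pair of arrays as a block (2 residual degrees of freedom for ethylene within genotype, 3 for genotype and for organ), empirical Bayes variances and Benjamini-Hochberg adjustment over all probe sets; the step was tested on simulated data. Other values came from Python 3.11.15 with numpy 2.4.6 and pandas 2.3.3. ADC2, the lists, the markers and the tests were chosen with earlier results of these data known. Named genes are ADC2, every measured list member, the 6 most like and 4 most opposite genes by r, and 4 with a symbol at each end. Alternatives were the deposited scaling, quantile normalization, floors of 50 and 200, a minimum of 100 and other measures of likeness.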

Additional observations from a re-analysis of the deposited data

How the results depend on the processing

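No paired analysis was possible because each condition has 1 array and the labels carry no replicate numbers that could pair samples; the blocks in the limma fits are pairs of conditions. The 12 ADC2 differences were recomputed with the deposited scaling and quantile normalization, and all 24 values kept their direction and their side of 2-fold, moving by at most 0.07 on the log2 scale. Floors of 50 and 200 lie under the lowest ADC2 signal and could not change them. Another probe set of ADC2 could not be tried, since 1 is annotated. The counts of list genes called for ethylene, genotype and their difference were 0 with the deposited scaling, quantile normalization, a floor of 200 and a minimum of 100. Over all probe sets, the calls for mhz7 against WT numbered 310, and 173 with a floor of 200; those for ethylene in WT numbered 2 in limma (1852 at an unadjusted p under 0.05), and 0 with quantile normalization. For organ, 9 or 10 genes were called in every setting, and METK3 was the one lost, with quantile normalization (which took it under the minimum signal), with a floor of 200 and, in a step chosen after seeing the data, without the WT air or the WT ethylene pair of arrays. The names at the ends of the likeness ranking depend on the measure. Of the 6 genes most like ADC2, 2 stayed among the first 6 by Spearman's rho and 0 after each organ's mean was removed, where they stood between places 7 and 25 with r of at least 0.974. Of the 4 most opposite, 0 stayed by Spearman's rho, 1 without organ means and 2 with the deposited scaling, where the 4 lay within the last 13 places; the cause was not tested. Signals near the floor limit what can be read for METK3, and for PHT3 in shoots.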

Other observations

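Among the 14 genes that shared the calls of ADC2 in the 6 comparisons of ethylene in each organ and genotype and of genotype in ethylene, CRSH2, a gene for a calcium-activated (p)ppGpp synthetase, was singled out after its values were seen, as the only other one with a symbol. It read 17868 in mhz7 roots in ethylene, 17699 in mhz7 roots in air, 1576 in ethylene-treated WT roots and 8449 in WT roots in air. In shoots it read 22020 in mhz7 in ethylene, 22170 in mhz7 in air, 6279 in WT in ethylene and 16634 in WT in air. Its ethylene difference in mhz7 minus that in WT was 2.44 on the log2 scale in roots and 1.40 in shoots, against 3.02 and 1.61 for ADC2. Unlike ADC2 in mhz7, CRSH2 was brighter in shoots than in roots in both genotypes and both gases.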
